A study of Mus musculus with 11 samples.

Results

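Glycolysis is represented here by 10 genes of mouse epididymal fat: Hk1 and Hk2 (hexokinases), Pfkl, Pfkm and Pfkp (phosphofructokinases), Aldoa (aldolase), Tpi1 (triose phosphate isomerase), Pgk1 (phosphoglycerate kinase), and Ldha and Ldhb (lactate dehydrogenase subunits). The genes were listed by name, with earlier results of these data known, and every array feature (probe set) annotated to them was taken. They are 10 of 12709 genes measured, and all 10 lay above the brightness filter applied to the array. They carry 26 probe sets of their own, and 1 more is annotated to Hk1 together with Rpl17 and its pseudogenes, so its signal cannot be assigned to Hk1.

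The 11 one-colour Affymetrix arrays came from male C57BL/6 mice aged 3 months on chow. Wild-type mice (B1+/+, 4 arrays) carried the gene Bdkrb1, whose product is the B1 receptor that senses kinin peptides at the cell surface. Knockout mice (B1-/-, 4 arrays) lacked it, and fat rescue mice (aP2B1-B1-/-, 3 arrays) carried the same knockout plus an aP2-driven B1 receptor. The aP2 (Fabp4) promoter is active in fat cells and is known to be active in macrophages too. The labels call the arrays of a genotype biological replicates without describing the animals further, so p-values measure the spread between these arrays. Whole tissue was measured, and fewer cells of a type cannot be told apart from less RNA per cell.

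Glycolysis splits glucose into pyruvate in the cytosol. Hexokinase traps glucose as glucose 6-phosphate, phosphofructokinase makes the committed step to fructose 1,6-bisphosphate, and aldolase, triose phosphate isomerase and phosphoglycerate kinase carry the carbon on to the ATP-forming stage. Lactate dehydrogenase converts pyruvate to lactate, with the A subunit typical of tissues that release lactate and the B subunit of tissues that oxidise it. In white fat cells the pathway also supplies glycerol 3-phosphate for triglyceride and carbon for fatty acid synthesis, and fat cells release much of their glucose carbon as lactate. Many of these genes are known targets of the hypoxia-inducible factors, whose binding sites include the core ACGTG. Only this form of the core was searched for here.

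The start-site regions of 4 members are shown because they pair, for 1 step each, a gene with lower means in both lines (Pfkl, Ldha) and an isoform without that pattern (Pfkp, Ldhb). This choice goes by the brightest probe set of each gene. Each region covers 250 bases before to 50 after a RefSeq start site (GRCm38.p6), printed in the direction of transcription. Capitals mark ACGTG and the GC box GGGCGG on either strand, so that the complement reads CACGT and CCGCCC. The Pfkl region is chr10:78009758-78010057 (minus strand), the Pfkp region chr13:6648722-6649021 (minus), the Ldha region (1 of 2) chr7:46845554-46845853 (plus) and the Ldhb region chr6:142507908-142508207 (minus).
Pfkl: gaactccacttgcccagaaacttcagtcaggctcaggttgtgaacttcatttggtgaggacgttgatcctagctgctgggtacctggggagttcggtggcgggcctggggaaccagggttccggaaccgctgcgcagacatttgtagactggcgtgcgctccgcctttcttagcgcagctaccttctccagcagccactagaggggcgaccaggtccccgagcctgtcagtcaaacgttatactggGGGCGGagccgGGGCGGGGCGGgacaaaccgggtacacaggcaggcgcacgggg
Pfkp: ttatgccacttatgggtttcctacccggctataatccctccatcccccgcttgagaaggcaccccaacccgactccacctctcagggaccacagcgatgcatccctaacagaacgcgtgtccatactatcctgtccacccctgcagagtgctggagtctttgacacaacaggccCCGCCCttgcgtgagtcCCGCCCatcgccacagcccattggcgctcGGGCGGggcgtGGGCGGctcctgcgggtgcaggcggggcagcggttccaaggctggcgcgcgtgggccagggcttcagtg
Ldha: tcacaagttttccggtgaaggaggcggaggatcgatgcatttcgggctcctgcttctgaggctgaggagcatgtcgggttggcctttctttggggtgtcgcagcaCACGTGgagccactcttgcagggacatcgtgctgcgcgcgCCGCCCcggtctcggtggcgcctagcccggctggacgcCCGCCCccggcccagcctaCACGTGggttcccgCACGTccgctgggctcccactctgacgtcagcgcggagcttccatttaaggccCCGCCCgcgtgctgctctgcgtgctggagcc
Ldhb: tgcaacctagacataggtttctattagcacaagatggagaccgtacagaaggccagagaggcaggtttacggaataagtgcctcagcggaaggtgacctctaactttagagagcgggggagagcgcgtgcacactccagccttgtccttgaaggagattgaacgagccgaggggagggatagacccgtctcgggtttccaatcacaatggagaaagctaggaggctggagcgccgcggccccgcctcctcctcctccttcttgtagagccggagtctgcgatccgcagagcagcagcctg

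All 10 genes had a region in RefSeq, 17 in all because several have more than 1 start site. ACGTG was found in 8 of these 17 regions, in 6 of the 10 genes (Hk1, Hk2, Pfkm, Aldoa, Pgk1 and Ldha), while 19.6% of all 32851 regions of this length hold it. The Ldha region holds 5 matches, of which 4 lie in 2 copies of the palindrome CACGTG, where each strand contributes an overlapping match. GGGCGG was found in 8 of the 17 regions, in 7 of the 10 genes, and in 35.7% of all regions. Overlapping regions of Aldoa share their matches to both motifs, which are counted in each region. The Ldhb region holds neither motif, and the Pfkl and Pfkp regions hold the GC box without ACGTG. A match is a description of these letters, and the arrays did not measure binding.

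Several facts of the arrays bear on every value below. Fat-cell markers were bright, with 8 of 10 measured and a summed signal of 83470 to 111400 in wild type, 75700 to 103000 in knockout and 82440 to 99060 in fat rescue, led by Fabp4, Adipoq and Retn. Of these 8 markers 8 had a lower mean in knockout (median log2 -0.22) and 7 in fat rescue (median -0.12) than in wild type, with 0 passing the test, and their part in the differences of the glycolytic genes was not tested. Of the 8 skeletal muscle markers 3 (Acta1, Mylpf, Ckm) passed the filter, and of 8 markers of epididymis and sperm 1 (Prm1) did. Array medians did not overlap between wild type (41.3 to 45.1) and either line (knockout 46.5 to 48.8, fat rescue 45.6 to 46.6), at a common trimmed mean of 200. On the leading principal component (27.3% of the variance), array 1 of wild type and array 1 of fat rescue lay far from the others. The targeted gene, Bdkrb1, read 5.5, 32.2, 3.7 and 8.9 in wild type, 4.8, 29.4, 6.9 and 29.7 in the knockout, and 73.4, 57.8 and 60.4 in fat rescue. Its wild-type and knockout signals are near background and overlap, so they do not check those labels.

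None of the 10 genes passed the threshold in any comparison, and the genes with a lower mean in both lines than in wild type were Pfkl, Ldha, Tpi1, Aldoa, Pgk1 and Hk2. In knockout against wild type, which asks what goes with loss of the receptor, 7 of 10 genes had a lower mean, where 46.3% of all genes did. The median log2 difference of the 10 was -0.12, beside 0.02 over all genes. Hk1, Pfkm and Ldhb had a higher mean there, but a lower one (-0.07, -0.10 and -0.13) once each array was centred on its median, which moved the median of all genes to -0.13. In fat rescue against wild type, which asks what still differs when the only receptor is aP2-driven, 8 of 10 had a lower mean, beside 44.3% of all genes, with a median of -0.17 beside 0.03. In fat rescue against knockout, which asks what returns with the aP2-driven receptor, 8 of 10 were lower (5 after median centring), beside 47.4%, with a median of -0.05 beside 0.01. These comparisons share arrays and are not independent of each other. The members' values come from bright probe sets, at percentiles 81.1 to 99.6 of all probe sets that are not controls. The shares and medians over all genes are not matched for brightness.

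By limma with Benjamini-Hochberg adjustment over all genes, 0 of 10 members passed an adjusted p of 0.05 in knockout against wild type (lowest adjusted p = 0.650), where 0.0393% of genes passed. In fat rescue against knockout 0 of 10 passed (lowest adjusted p = 0.998), as did 0% of all genes. In fat rescue against wild type 0 of 10 passed (lowest adjusted p = 0.317), where 0.0157% of genes did. The moderated F test over the 3 genotypes passed 0 members and 0.0393% of genes. Without adjustment, 2 members had p under 0.05 with a lower mean in knockout (Pfkl and Ldha; 3.36% of genes did so), and 3 in fat rescue against wild type (Pfkl, Pgk1 and Ldha; 3.49% of genes). The F test gave 2 of 10, Pfkl and Ldha, beside 6.41% of genes. Against knockout, only Pfkp had an unadjusted p under 0.05, with a higher mean in fat rescue (2.09% of genes).

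**Figure D1:**
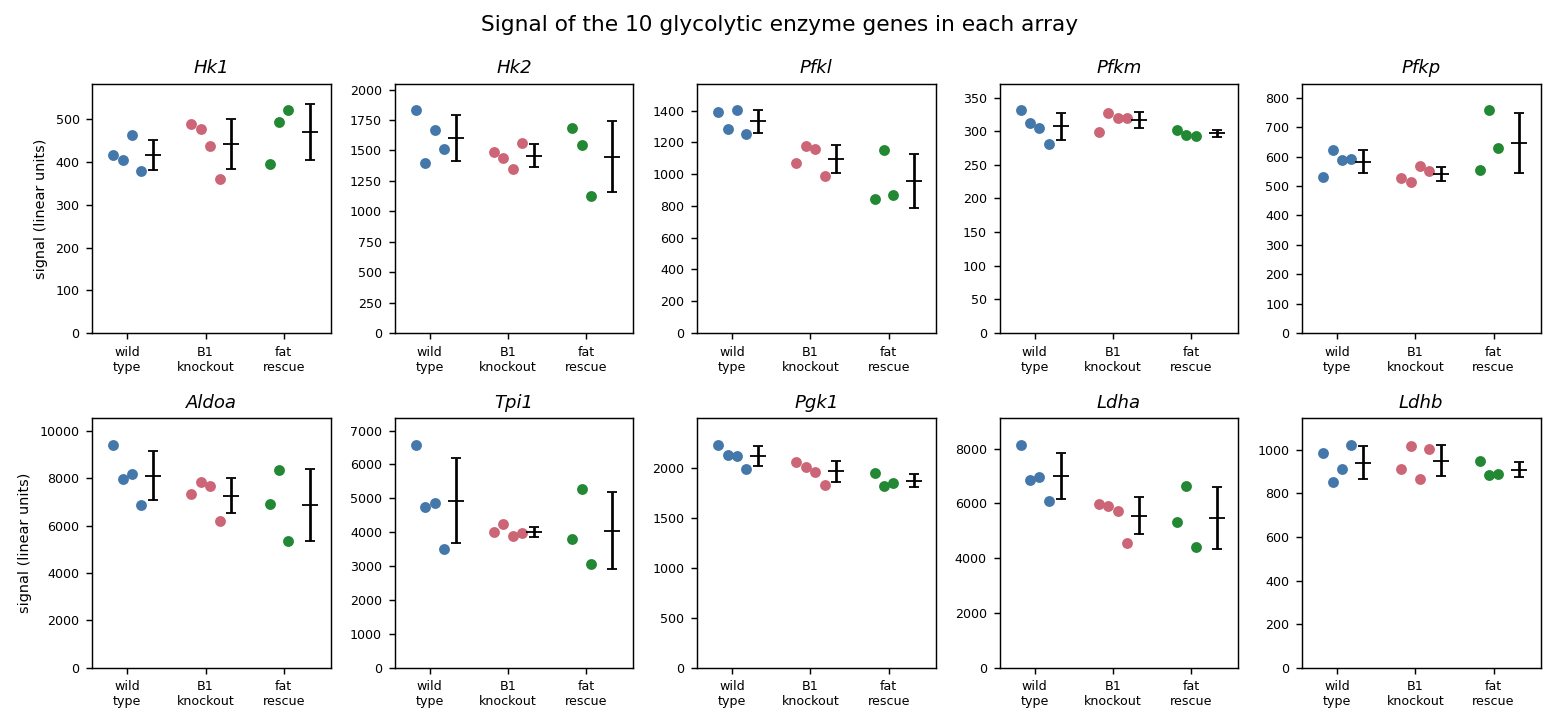
Signal (linear units, y axis from 0) of the 10 genes in each of the 11 arrays, 1 panel per gene and 1 point per array, with mean and SD beside each genotype. Knockout points lie below all wild-type points for Pfkl and Ldha, and rescue points do so for Pfkl and Pgk1.

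The first step, the phosphorylation of glucose, showed no separation of the genotypes. Hk1, the hexokinase found in most tissues, read 417, 406, 463 and 380.0 in the 4 wild-type arrays, 489.9, 479, 439 and 362 in the knockout, and 397, 494 and 521 in fat rescue. The groups overlap, with the lowest array of all in knockout and the highest in fat rescue. Mean log2 signal was higher than wild type by 0.08 in knockout (95% interval -0.18 to 0.34) and 0.17 in fat rescue (-0.11 to 0.45). The dimmer Hk1 probe set gave -0.03 and 0.03 for the same differences. Its log2 signals over the 11 arrays did not follow the brighter one (Pearson's r = -0.20, Spearman's rho = -0.28), so the small Hk1 difference rests on 1 probe set. The probe set shared with Rpl17 read 5119 to 6757 in wild type, 5980 to 6971 in knockout and 5956 to 6310 in fat rescue, and is given only for completeness.

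Hk2, the insulin-induced hexokinase of muscle and fat, has 1 probe set. It read 1829, 1401, 1667 and 1514 in wild type, 1484, 1438, 1345 and 1565 in the knockout, and 1683, 1542 and 1125 in fat rescue. All groups overlap, and rescue array 3 was the lowest. The log2 differences from wild type were -0.13 (interval -0.40 to 0.13) in knockout and -0.16 (-0.45 to 0.13) in fat rescue, and the latter was 0.015 without rescue array 3. Without wild-type array 1 the differences were -0.07 and -0.09, and without rescue array 1 that of fat rescue was -0.28. Hk1 relative to Hk2 within an array was on average higher in the knockout by 0.21 (log2) and in fat rescue by 0.33 than in wild type, with SDs of 0.15, 0.26 and 0.49 in the 3 groups. The latter was 0.08 without rescue array 3 and 0.56 without rescue array 1, and the former 0.34 without knockout array 4.

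Phosphofructokinase, the committed step, is encoded by 3 members whose values ran differently. Pfkl, the liver-type subunit, read 1389, 1287, 1402 and 1254 in wild type, 1070.0, 1178, 1159 and 987 in the knockout, and 846, 1151 and 870.4 in fat rescue. Every array of either line lay below every wild-type array, and knockout and fat rescue overlapped. The knockout mean was 0.823 times wild type (log2 -0.28 ± 0.10 SE, interval -0.51 to -0.06, limma adjusted p = 0.650), and the rescue mean 0.711 times wild type (log2 -0.49 ± 0.11, interval -0.73 to -0.25, adjusted p = 0.317). Fat rescue against knockout gave -0.21 (interval -0.45 to 0.03), which was -0.13 without rescue array 1 and -0.35 without rescue array 2. None of these passed.

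A second Pfkl probe set followed the first (r = 0.91, rho = 0.92) and read 687, 657, 675 and 614 in wild type, 554, 565, 595 and 499 in the knockout, and 491, 639 and 537 in fat rescue. Knockout arrays again lay below all wild-type arrays, but rescue array 2 lay within the wild-type range. Its differences from wild type were the same in both lines, -0.25 each, and fat rescue against knockout had an interval of -0.23 to 0.23. The third Pfkl probe set was dim (28.9 to 65.1 over all arrays) and read 0.20 and 0.03. With the mean of the 3 probe sets, the Pfkl differences were -0.11 in knockout and -0.24 in fat rescue.

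Pfkm, the muscle-type subunit, was the steadiest of the phosphofructokinases. Its only probe set read 331, 312, 305 and 282 in wild type, 299, 327, 319.8 and 319.7 in the knockout, and 302, 294 and 293 in fat rescue. The whole spread lay within the wild-type range. The differences from wild type were 0.04 (interval -0.14 to 0.23) in knockout and -0.05 (-0.25 to 0.15) in fat rescue, so a difference as large as that of Pfkl in fat rescue lay outside both intervals.

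Pfkp, the platelet-type subunit, read 531, 623, 588 and 591 in wild type, 528, 514, 567 and 551 in the knockout, and 555, 757 and 628 in fat rescue. The highest array was rescue array 2, and the rescue and knockout groups overlapped by 1 array on each side. Fat rescue exceeded knockout by 0.25 ± 0.11 (interval 0.02 to 0.48, limma adjusted p = 0.998), which was 0.13 without rescue array 2. From wild type the differences were -0.11 (-0.32 to 0.11) in knockout and 0.14 (-0.09 to 0.37) in fat rescue, the latter 0.02 without rescue array 2 and 0.24 without rescue array 1. The dimmer Pfkp probe sets gave 0.34 and 0.63 for fat rescue against knockout, the latter at signals of 16.4 to 57.5.

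The makeup of phosphofructokinase transcripts can be followed as a log ratio within each array, where only differences between arrays have meaning because probe sets differ in brightness. Pfkl relative to Pfkp was 1.39, 1.05, 1.25 and 1.08 (log2) in wild type, 1.02, 1.20, 1.03 and 0.84 in the knockout, and 0.61, 0.60 and 0.47 in fat rescue. All 3 rescue arrays lay below all 8 others, while knockout and wild type overlapped. The mean ratio was lower in fat rescue by 0.63 than in wild type and by 0.46 than in knockout, against SDs of 0.16, 0.15 and 0.08. With the mean of each gene's probe sets the first of these was -0.53, and the knockout difference of -0.17 became 0.003.

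Pfkl relative to Pfkm was 2.07, 2.05, 2.20 and 2.16 (log2) in wild type, 1.84, 1.85, 1.86 and 1.63 in the knockout, and 1.48, 1.97 and 1.57 in fat rescue. Every array of either line lay below every wild-type array. That separation rests on the brightest Pfkl probe set. In the second Pfkl probe set, the signal of rescue array 2 (639) lay within the wild-type range (614 to 687). The means differed from wild type by -0.33 in knockout and -0.44 in fat rescue, and by -0.15 and -0.19 with the mean of each gene's probe sets. How often other pairs of genes separate in this way was not examined. These ratios were given no test, since the members were chosen with earlier results known.

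**Figure D2:**
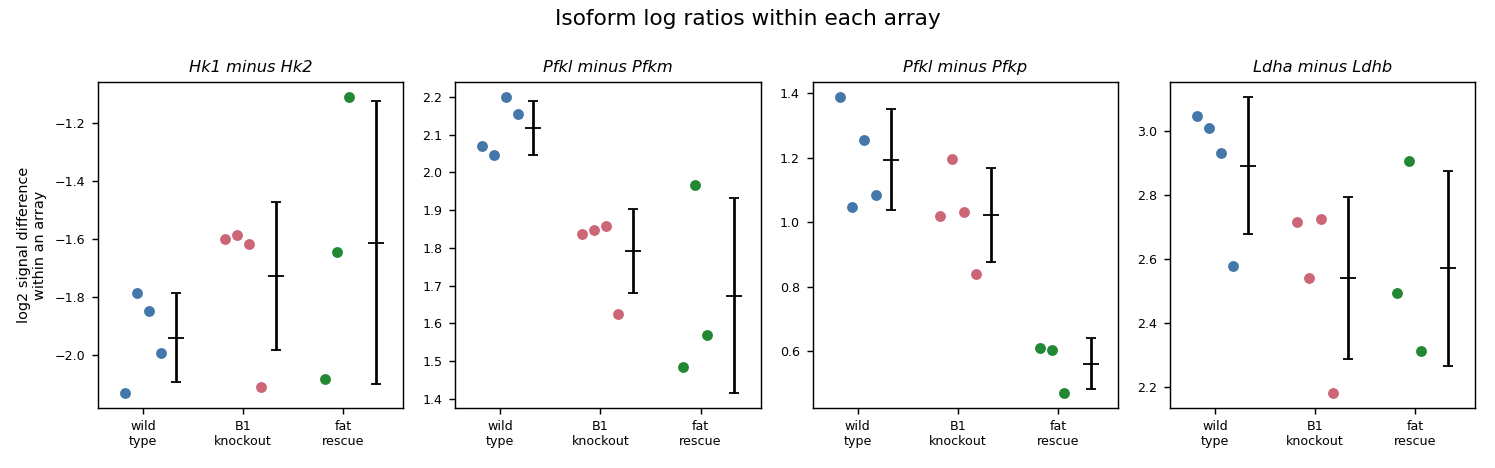
Log2 signal difference between 2 isoforms of 1 step within each array (y axis, not starting at 0), 1 point per array, with mean and SD beside each genotype. Each gene is shown by its brightest probe set. The 3 rescue arrays lie below the 8 others for Pfkl minus Pfkp (0.47 to 0.61), and both lines lie below wild type for Pfkl minus Pfkm. In the second Pfkl probe set, not shown, the signal of rescue array 2 lay within the wild-type range.

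Aldoa and Tpi1, which split and interconvert the sugar phosphates, had the largest within-genotype SDs of the members (log2 0.22 and 0.30). That of Aldoa was near the median over all genes, 0.22. Aldoa, the main aldolase outside liver and brain, read 9400.3, 7969, 8173 and 6864 in wild type, 7355, 7859.6, 7683 and 6185 in the knockout, and 6908, 8359.8 and 5353 in fat rescue. The groups overlapped, with wild-type array 1 highest and rescue array 3 lowest. The differences from wild type were -0.15 (interval -0.45 to 0.15) and -0.25 (-0.57 to 0.07) in knockout and fat rescue. The first was -0.08 if array 1 of wild type was left out, -0.23 if array 4 of wild type was, and -0.08 if array 4 of the knockout was. The second was -0.08 without rescue array 3 and -0.40 without rescue array 2. Of its 5 probe sets 4 had lower means in both lines, at -0.15 to -0.25 in knockout and -0.19 to -0.37 in fat rescue. The fifth and dimmest read 0.16 and 0.22, and did not follow the brightest over the arrays (r = 0.08, rho = -0.01).

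Tpi1 read 6572, 4755, 4859.9 and 3514 in wild type, 3998, 4229, 3879 and 3978 in the knockout, and 3803, 5279 and 3063 in fat rescue. The 4 knockout arrays were close together and inside the wild-type range. Its within-genotype SD of 0.30 on the log2 scale was the largest among the members, whose lowest was 0.07 for Pgk1, beside a median of 0.22 over all genes. The differences were -0.26 (interval -0.65 to 0.13) in knockout and -0.28 (-0.70 to 0.13) in fat rescue. The knockout difference was -0.11 without wild-type array 1 and -0.41 without wild-type array 4, and that of fat rescue was -0.10 without rescue array 3, -0.49 without rescue array 2, and -0.13 or -0.43 if array 1 or array 4 of wild type was left out. Its 3 probe sets had lower means in both lines and followed each other (r = 0.97 and 0.89 with the brightest, rho = 0.97 and 0.81).

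Pgk1, which makes ATP from 1,3-bisphosphoglycerate, had small differences against a small spread. It read 2230.1, 2133, 2120.5 and 1986 in wild type, 2065, 2014, 1964 and 1826 in the knockout, and 1946, 1821 and 1849.8 in fat rescue. All rescue arrays lay below all wild-type arrays, and the knockout overlapped both. Fat rescue was lower than wild type by a log2 difference of -0.18 ± 0.08 (interval -0.34 to -0.01, limma adjusted p = 0.594) and knockout by -0.11 (-0.26 to 0.05). A second probe set gave -0.26 in fat rescue and -0.06 in knockout, and the third and dimmest 0.08 and 0.25. With the mean of the 3, the knockout difference turned to 0.0304.

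Ldha, which makes lactate, had the largest difference of any member in knockout. Its only probe set read 8129, 6854, 6954 and 6104 in wild type, 5997, 5920.1, 5731 and 4544 in the knockout, and 5336, 6653 and 4411 in fat rescue. All 4 knockout arrays lay below all wild-type arrays, whereas rescue array 2 lay inside the wild-type range. The knockout mean was 0.791 times wild type (log2 -0.34 ± 0.14 SE, interval -0.63 to -0.05, limma adjusted p = 0.682) and the rescue mean 0.773 times (log2 -0.37 ± 0.15, interval -0.69 to -0.06, adjusted p = 0.577). Neither passed. Fat rescue and knockout differed by -0.03 (interval -0.35 to 0.28). The fat rescue difference was -0.23 without rescue array 3.

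Ldhb, the subunit typical of oxidative tissue, did not share this pattern in its brightest probe set. It read 983, 850.3, 910.4 and 1021 in wild type, 913, 1018, 866 and 1003 in the knockout, and 948, 887 and 889 in fat rescue, which is a single range. The differences from wild type were 0.01 (interval -0.17 to 0.20) and -0.05 (-0.25 to 0.15). Its 4 probe sets disagreed in direction, with differences from -0.20 to 0.14 in either line. With the brightest probe set of each gene, Ldha relative to Ldhb was 3.05, 3.01, 2.93 and 2.58 (log2) in wild type, 2.71, 2.54, 2.73 and 2.18 in the knockout, and 2.49, 2.91 and 2.31 in fat rescue. The groups overlapped because of wild-type array 4, and the means differed from wild type by -0.35 in knockout and -0.32 in fat rescue. They were -0.23 without knockout array 4 and, for fat rescue, -0.19 without rescue array 3 and -0.49 without rescue array 2.

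**Figure D3:**
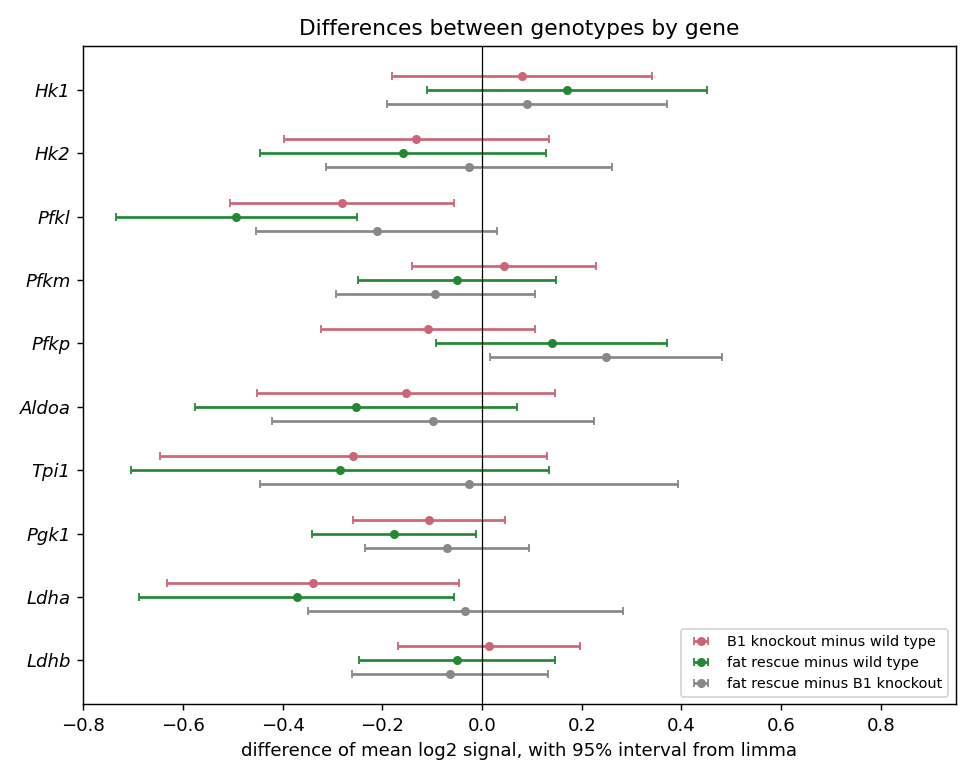
Difference of mean log2 signal (x axis) for each gene and comparison, with 95% intervals from limma. The intervals of Pfkl and Ldha lie below 0 in both lines against wild type, that of Pgk1 in fat rescue only, and the others against wild type include 0.

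Where groups did not overlap, the share over all genes gives the scale. In knockout 2 of 10 members (Pfkl and Ldha) lay wholly below wild type, as did 1.86% of all genes. In fat rescue 2 of 10 (Pfkl and Pgk1) did, where the share was 3.5% of all genes. With fewer arrays non-overlap is easier to reach: without wild-type array 4, the wild-type array with the lowest mean of the members, the counts were 5 and 4, and the shares of all genes 3.9% and 6.14%. Leaving out array 1 of wild type and array 1 of fat rescue together, they were 3 and 2 (3.53% and 9.9% of all genes), and the counts at an unadjusted p under 0.05 with a lower mean were 1 and 1 (2.93% and 3.3%). With the mean of each gene's probe sets, 1 and 0 members lay wholly below wild type (1.63% and 3.18% of all genes). Without knockout array 4 the count at an unadjusted p under 0.05 in knockout was 0 (2.77% of all genes), and without wild-type array 1 it was 1 (2.98%). In fat rescue it was 1 without wild-type array 1 (2.84%) and 1 without rescue array 3 (2.68%). Without rescue array 3 the medians over the members were -0.06 in fat rescue against wild type and 0.04 against knockout, and without wild-type array 1 the knockout median was -0.08.

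A second fit took all 45037 probe sets that are not controls, without the brightness filter. Of the 27 probe sets of the members 0 passed in any comparison by limma (lowest adjusted p = 0.708, 1 and 0.398 in knockout against wild type, fat rescue against knockout and fat rescue against wild type), where 0.0178%, 0% and 0.0155% of all probe sets did. Of the 26 with a gene of their own, 18 had a lower mean in knockout and 17 in fat rescue than in wild type. The dimmest probe sets of Pfkl, Aldoa and Pgk1 had higher means in both lines, against the brightest of the same gene. Probe sets of 1 gene share a transcript and are no replicates.

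**Figure D4:**
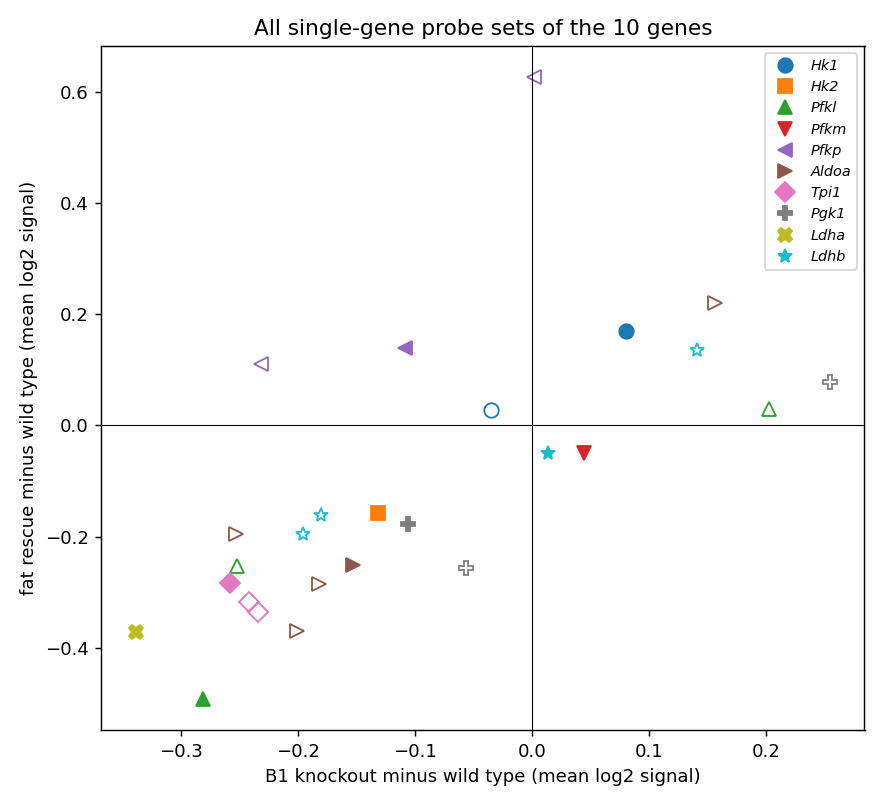
Log2 difference from wild type in knockout (x axis) and in fat rescue (y axis) of the 26 probe sets with a gene of their own, filled for the brightest of each gene and open for the others. Both axes share the 4 wild-type arrays, so points along the diagonal are no independent support, and the brightest probe sets of Pfkl, Ldha, Tpi1, Aldoa, Pgk1 and Hk2 lie at the lower left.

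The members fell into genes that varied together from array to array and genes that did not. Over the 11 arrays Aldoa followed Ldha (r = 0.94, rho = 0.85) and Tpi1 (r = 0.89, rho = 0.93), and Pfkl followed Ldha (r = 0.85, rho = 0.86). Without the 2 arrays farthest from the median of the first gene these r were 0.86, 0.96 and 0.86, and with the genotype means taken out 0.97, 0.87 and 0.80, so the relation also held within genotypes. By contrast, Hk1, Pfkp and Ldhb had r of -0.11, -0.09 and -0.08 with the mean of the 9 other members. Wild-type array 1 was the highest array for 6 of 10 members and rescue array 3 the lowest for 4. These are descriptions, since all points share array-wide properties such as RNA and scaling.

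**Figure D5:**
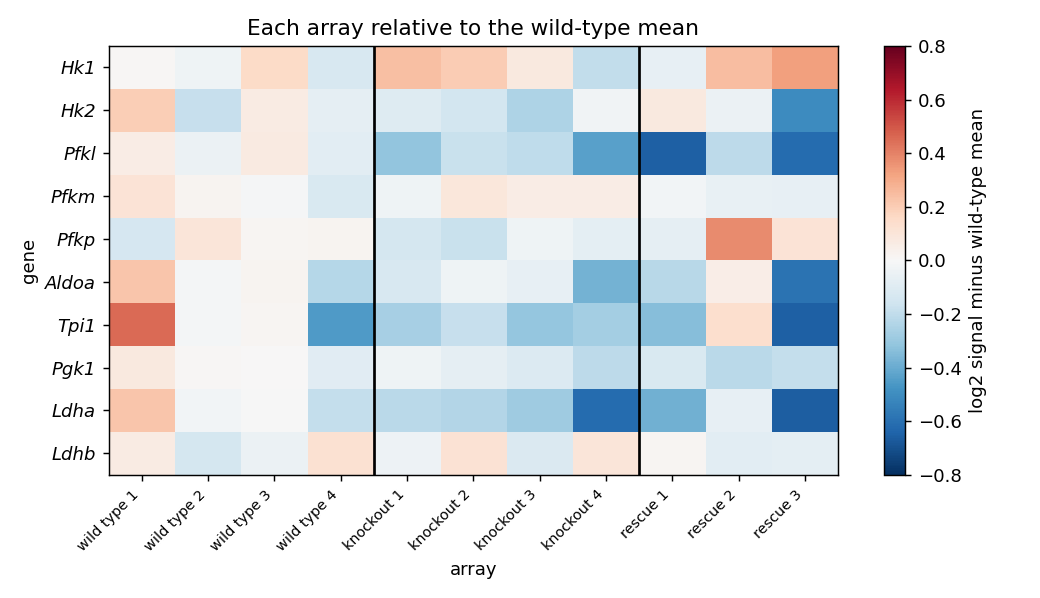
Log2 signal of each gene (rows) in each array (columns) minus its wild-type mean, with red above and blue below it. Pfkl and Ldha are blue in all 7 arrays of the knockout and rescue mice, Tpi1 and Aldoa are red in wild-type array 1 and rescue array 2, and Hk1 and Pfkp show another order.

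The 5 genes of all others whose log2 signal was most like the mean of the 10 members were Me1 (r = 0.97, rho = 0.98), Hdlbp (r = 0.96, rho = 0.90), Thrsp (r = 0.95, rho = 0.92), Gpd1 (r = 0.95, rho = 0.96) and Gbe1 (r = 0.94, rho = 0.96). Malic enzyme 1 makes NADPH for fatty acid synthesis, Thrsp is a lipogenic nuclear protein, Gpd1 makes glycerol 3-phosphate from a glycolytic intermediate, Gbe1 branches glycogen and Hdlbp is an RNA-binding protein. Of all other genes 0.197% had r over 0.9. With wild-type array 1 and rescue array 3 left out, the 5 values were between 0.84 and 0.94. Me1 read 8162, 5367, 6567 and 3169 in wild type, 4426, 4049, 3561 and 3083 in the knockout, and 3150.1, 6996 and 2246 in fat rescue, with the 2 highest arrays being wild-type array 1 and rescue array 2, as for Aldoa. Its difference from wild type was -0.55 ± 0.32 in knockout and -0.58 ± 0.35 in fat rescue (limma adjusted p = 0.730 and 0.690), and none of the 5 passed.

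Of 18 other glycolytic enzymes and isoforms 9 were measured, with 0 passing in any comparison. In knockout 6 had a higher and 3 a lower mean than in wild type (median log2 0.24). The 3 with a lower mean were the brightest of this list, at -0.11 each, and the 6 with a higher mean were dimmer. In fat rescue 4 had a higher and 5 a lower mean (median -0.02). Hk3, the hexokinase of white blood cells, read 64.0, 83.4, 56.0 and 86.9 in wild type, 195, 80.4, 90.6 and 119.8 in the knockout, and 133, 139 and 125 in fat rescue, where every rescue array lay above wild type (log2 0.89 ± 0.27, limma adjusted p = 0.456). The muscle-type enolase gene Eno3 was at 119 ± 6.55 (SD, n = 4) in wild type and 166 ± 10.8 (n = 3) in fat rescue, also without overlap (log2 0.48 ± 0.14, adjusted p = 0.414 by limma). Both were named for a small F-test p, and 5.74% of all genes lay wholly above wild type in fat rescue. Pgam1 had lower means in both lines (-0.11 and -0.22), and Aldoc, dim at 34.6 to 155, read 0.87 in knockout and 0.34 in fat rescue. Gapdh, outside the gene fit because its usable probe set is an array control, read 8066 to 9507 in wild type, 6331 to 8031 in knockout and 6328 to 9091 in fat rescue with its 3' probe set. With this probe set knockout arrays lay below wild type by a narrow margin, as 1.86% of all genes in the fit did, and fat rescue overlapped. Going by the 3'/5' ratios given below, the 5' Gapdh probe set overlapped between knockout and wild type. Gpi1 and Eno1 were not analysed here.

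Macrophage markers, given here beside Hk3, were all 11 measured. They had higher means in both lines with 0 passing the test, and a summed signal of 15520 to 21680 in wild type, 16840 to 32020 in knockout and 21710 to 26170 in fat rescue, led by Lyz2, Csf1r and C1qa. The highest Hk3 signal and the highest macrophage sum were both in knockout array 1. Mesothelial markers (6 of 6 measured, led by Upk3b, Lrrn4 and Upk1b) summed to 2380 to 3792, 3192 to 3935 and 3871 to 4595 in wild type, knockout and fat rescue. RNA quality can be read from the 3'/5' signal ratios of control genes. That of beta-actin was 1.65 to 1.83 in wild type, 1.53 to 1.69 in knockout and 1.47 to 1.56 in fat rescue. That of Gapdh overlapped, at 0.918 to 1.029, 0.8645 to 1.001 and 0.918 to 0.950 in the same order. Like the array medians, the macrophage sum, the mesothelial sum and the beta-actin ratio separated wild type from fat rescue, as did Pfkl and Pgk1. Their part in the differences was not tested. Skeletal muscle markers summed to 174 to 569.6, 137 to 648 and 223 to 388 with no separation, beside the Eno3 values.

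Markers of the other cell types did not separate the genotypes. Endothelial markers (8 of 8 measured, led by Esam, Cldn5 and Pecam1) summed to 4599.8 to 5527 in wild type, 4076 to 5133 in knockout and 4729 to 6575 in fat rescue. Fibroblast markers (5 of 5, led by Dcn, Col3a1 and Dpt) summed to 28010 to 33790, 26610 to 40840 and 28020 to 32740. Lymphocyte markers (5 of 8, led by Ms4a1, Cd79a and Cd8a) summed to 136.5 to 303, 287 to 403 and 279 to 327, with wild-type array 1 lowest. Of 6 erythroid markers 2 (Alas2, Slc4a1) were measured, at a sum of 437 to 983, 443 to 655 and 381 to 573.

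Among the regulators of flux, 10 of 11 genes were measured and 0 passed. Pfkfb3, which makes the phosphofructokinase activator fructose 2,6-bisphosphate, read 4905, 5741, 4382 and 4770.5 in wild type, 3005, 4138, 4532 and 3679.7 in the knockout, and 3702, 3657 and 4329 in fat rescue. All rescue arrays lay below all wild-type arrays, and knockout array 3 lay within the wild-type range (log2 -0.38 ± 0.13 in knockout and -0.34 ± 0.14 in fat rescue, limma adjusted p = 0.631 and 0.577). In the list as a whole 6 of 10 genes had a lower mean in knockout and 9 in fat rescue, with medians of -0.11 and -0.23. Tigar, a fructose bisphosphatase that lowers flux, read -0.09 and -0.41. Fbp1 and Fbp2, of gluconeogenesis, had low and scattered signals; Fbp1 read 1.63 in knockout and 0.10 in fat rescue, Fbp2 0.72 and -1.20.

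In glucose and lactate transport 8 of 9 genes were measured and 0 passed, with 6 lower in knockout and 7 in fat rescue (medians -0.09 and -0.21). Slc16a1, the monocarboxylate transporter that moves lactate, read 1174, 951, 933 and 993 in wild type, 695, 799, 896 and 848 in the knockout, and 891, 851 and 938 in fat rescue. The knockout lay wholly below wild type (log2 -0.32 ± 0.10, limma adjusted p = 0.574), and rescue array 3 reached the wild-type range (-0.18). The insulin-regulated glucose transporter gene Slc2a4 read -0.28 in knockout and -0.27 in fat rescue, with overlap. Bsg, the chaperone of lactate transporters, read -0.01 and -0.14, and Slc16a7 0.02 and -0.29.

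The transcription factors were all measured, and 0 of 9 passed. Epas1, which encodes HIF-2 alpha, had a mean signal of 6369 (SD 163, n = 4) in wild type, of 5409 (SD 452, n = 4) in knockout mice and of 6079 (SD 504, n = 3) in rescue mice (log2 -0.24 and -0.07). Every knockout array lay below every wild-type array. Hif1a read 0.17 and 0.27, Mlx -0.24 and 0.12, and Mlxipl, which encodes the glucose-responsive factor ChREBP, -0.28 and -0.18. Of 14 hypoxia targets outside glycolysis 12 were measured with 0 passing and medians of -0.05 in knockout and -0.02 in fat rescue. Egln1, an oxygen-sensing hydroxylase of HIF, read -0.16 and -0.02, Plod2 0.18 and -0.06, P4ha2 -0.20 and -0.04, and Egln3 0.32 and 0.20.

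Pathways that branch from glycolysis had the lowest adjusted p of the pathway lists, though 0 of the 17 genes measured of 18 passed. Of these, 14 had a lower mean in knockout and 11 in fat rescue than in wild type (medians -0.18 and -0.21). Phgdh, which diverts 3-phosphoglycerate to serine, had a mean signal of 5354 (SD 568, n = 4) in wild type, of 3762 (SD 298, n = 4) in knockout mice and of 3903 (SD 344, n = 3) in rescue mice (log2 -0.51 ± 0.10 and -0.45 ± 0.10, limma adjusted p = 0.188 and 0.317), with no overlap with wild type in either line. Gpd2, the mitochondrial glycerol 3-phosphate dehydrogenase, was lower in knockout (log2 -0.64 ± 0.13) and nearer to wild type in fat rescue (-0.16 ± 0.14, limma adjusted p = 0.205 and 0.785). Gys2, a glycogen synthase gene, read -1.19 and -0.84 at signals of 41.7 to 203. Rpia, of the pentose phosphate pathway, had the opposite order, at 297 to 308 in wild type, 334 to 361 in knockout and 399 to 413 in fat rescue (log2 0.21 ± 0.08 and 0.43 ± 0.08, limma adjusted p = 0.650 and 0.167). Its 3 genotypes did not overlap, where 1.98% of all genes lay wholly above wild type in knockout and 5.74% in fat rescue.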

How the data were processed

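The values are those the authors deposited, a linear signal intensity for each probe set, scaled to a common level. Per the submitters' processing notes it came from GCOS 1.3 and MAS5. A single 0 was set to the smallest positive value, 0.1, and log2 was taken. Of 45101 probe sets 64 controls were left out. The upper 60% by mean log2 signal were kept, and each gene with 1 symbol in the platform annotation took the values of its brightest kept probe set.

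All 11 arrays were fitted in limma 3.58.1 (R 4.3.3, statmod 1.5.0; eBayes with trend), with genotype as the only factor, two-sided contrasts, a moderated F test and Benjamini-Hochberg adjustment over all genes. Differences are on the log2 scale, n = 4, 4 and 3. The steps were tested on simulated data. The members, gene lists and alternatives were chosen with earlier results of these data known. Genes named are the members, up to 4 per pathway list with the smallest unadjusted F-test p, the 3 brightest per marker list, and the 5 most like the members' mean; Gapdh control values were added after its absence from the fit was seen. The array number limits precision. Neither batch nor scan date is in the labels, and the files name no genome build. Start-site regions are those of RefSeq on GRCm38.p6. The alternatives were other scalings, a pseudocount of 50, other brightness filters (none, the upper 40%), the mean of probe sets, other eBayes settings, array weights, a fit of just the compared groups, a replicate block, and leaving out arrays.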

Additional observations from a re-analysis of the deposited data

Results flagged for a closer look

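Of 20 groups of 4 arrays tested for 1 array far from the rest, 1 was flagged, about the number chance gives at 1 in 20. It was Ldha in knockout, where array 4 (4544) lay below the others (5731 to 5997) by 0.836 of the whole range on the log2 scale, just above Dixon's 95% critical value for groups of this size. Without knockout array 4 the Ldha difference from wild type was -0.25 (limma adjusted p = 0.885).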

How the results depend on the processing

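No member passed the threshold under any of the 23 alternatives, over 30 differences. Of these 10 changed direction under at least 1 alternative, and none of the 10 had passed. In knockout against wild type these were Hk1 (-0.0677), Pfkm (-0.1044) and Ldhb (-0.1345) with median centring, Pgk1 (0.0304) and Ldhb (-0.0554) with the mean of probe sets, and Ldhb leaving out 1 array (-0.0339 to 0.0572). In fat rescue against knockout they were Hk2, Tpi1 and Ldha with median centring (0.0195, 0.02 and 0.013), Ldha with array weights (6e-04) and Tpi1 without array 1 of wild type and of fat rescue (8e-04). Leaving out 1 array there, Hk1 ranged from -0.0037 to 0.208, Hk2 from -0.1444 to 0.1465, Aldoa from -0.2516 to 0.07, Tpi1 from -0.2358 to 0.157 and Ldha from -0.1849 to 0.1116. Hk2 in fat rescue against wild type ranged from -0.2759 to 0.015. For Hk2, Aldoa, Tpi1 and Ldha the upper end was reached without rescue array 3. Centring arrays on their median moved the median knockout difference of all genes from 0.02 to -0.13 and that of the members to -0.27. The gap between them, -0.14, cannot change under this centring, which shifts all genes of an array alike. It was -0.08 with quantile normalization and from -0.16 to -0.09 leaving out 1 array. With median centring all 10 members had lower means in knockout and 5 of 10 in fat rescue against knockout. With the mean of probe sets, Pfkl relative to Pfkm read -0.15 (knockout) and -0.19 (fat rescue) and Pfkl relative to Pfkp 0.003 (knockout, from wild type). Over all genes, 5 passed in knockout against wild type (3 higher, 2 lower). The count was 10 with median centring (2 higher, 8 lower), 2 without trend, 2 with only the groups compared, 8 with the replicate block, 14 without wild-type array 1 and rescue array 1, and 2 to 14 leaving out 1 array. In fat rescue against wild type 2 passed, and 5 with median centring (2 higher, 3 lower), 6 in the upper 40% of probe sets, 1 with the mean of probe sets, 1 without trend, 1 with robust eBayes, 7 with array weights, 1 with only the groups compared, 6 without both arrays, and 1 to 8 leaving out 1 array. The F test passed 5, and 2 with the mean of probe sets, 1 without trend, 2 with the replicate block, and 1 to 7 leaving out 1 array. The cause of these shifts was not tested. Same-numbered arrays of different genotypes had r of deviations from -0.14 to 0.35, with no common direction over the numbers. For arrays numbered 1 all were positive (0.141, 0.345 and 0.188). That of wild type with fat rescue (0.345) was the highest between any arrays of different genotypes. Whether same-numbered arrays were handled together was not tested, and the replicate block brought no member past the threshold.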
